A study of Mus musculus with 6 samples.

Results

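The DNA replication and repair genes are a list of 46 mouse genes chosen by name that serve origin licensing, the replicative helicase, the replication fork, nucleotide supply, the G1/S transition, maintenance DNA methylation, repair and the replication checkpoint. All 46 were found by symbol among 25528 genes in the count tables. They were also among the 12593 genes with enough reads to be tested, with between 28 and 4292 counts in a library. They were measured by sequencing of polyadenylated RNA from organoids of mouse gastric corpus, the acid-secreting body of the stomach, grown in 3D culture. One group of 3 libraries carried an Erbb2 overexpression construct, and a control group of 3 was transduced with an empty vector. Both groups were numbered 1 to 3. The sources used here do not give mouse strain, age, the promoter of the construct, the number of clones or the day of harvest. They also leave unsaid whether replicates were separate cultures or animals, so a p-value here covers only the spread among the sequenced libraries, which may be technical.

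Before a cell copies its DNA, the origin recognition complex, with CDC6 and CDT1, loads the ring of MCM proteins onto origins. The kinase CDC7 then helps to start them, and CDC45 and the GINS complex join the ring to form the active helicase. Transcripts of many of these proteins rise together at the end of G1, when cyclin E activity and E2F transcription factors come up. The level of such transcripts in a tissue is widely read as a sign of how many of its cells are cycling, and in the corpus most cycling cells lie in the isthmus of the gland. In bulk RNA, fewer cycling cells and less of each transcript per cycling cell cannot be told apart.

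The promoters of these genes are shown first, because E2F-type letters were more frequent in them than in all tested genes. Genes of the G1/S step, E2f1 and E2f2 among them, were chosen by name, so a higher share may follow from that choice. A window from 250 bases before to 50 after the start was available for 39 of the 46 genes (RefSeq, GRCm38.p6). It was searched on both strands for TTTCCCGC, TTTCGCGC, TTTGCCGC and TTTGGCGC, which can overlap one another on opposite strands. Of the 39 genes 18 held at least 1 match (46.2%), against 4.73% of 9731 tested genes with a window and 2.61% of all 27025 genes in that table. The letters CCAAT, the binding site of NF-Y, were in 24 of the 39 (61.5%), against 43.2% of the tested genes. A match describes letters and does not show a bound site. Below are the 200 bases before the start for the 6 genes with the smallest p in the comparison of the groups among those with a match in that stretch, with the matches in capitals. The coordinates are chr4:108579254-108579453, plus strand, for Orc1 and chr5:138171884-138172083, minus strand, for Mcm7. They are chr1:128359706-128359905, minus strand, for Mcm6 and chr5:151651209-151651408, minus strand, for Rfc3. For Pola1 they are chrX:93632156-93632355, minus strand, and for Mcm5 chr8:75109309-75109508, plus strand.
Orc1: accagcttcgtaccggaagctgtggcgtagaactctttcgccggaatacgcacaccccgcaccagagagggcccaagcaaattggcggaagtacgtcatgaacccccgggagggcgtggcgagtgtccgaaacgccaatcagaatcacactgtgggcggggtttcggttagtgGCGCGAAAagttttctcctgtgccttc
Mcm7: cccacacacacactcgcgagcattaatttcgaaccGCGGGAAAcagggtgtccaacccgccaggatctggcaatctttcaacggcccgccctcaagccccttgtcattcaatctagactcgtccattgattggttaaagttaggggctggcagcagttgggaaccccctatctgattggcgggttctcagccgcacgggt
Mcm6: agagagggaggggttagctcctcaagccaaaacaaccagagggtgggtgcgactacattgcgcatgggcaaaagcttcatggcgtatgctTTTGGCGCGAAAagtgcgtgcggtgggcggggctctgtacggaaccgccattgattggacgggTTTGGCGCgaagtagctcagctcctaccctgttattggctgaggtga
Rfc3: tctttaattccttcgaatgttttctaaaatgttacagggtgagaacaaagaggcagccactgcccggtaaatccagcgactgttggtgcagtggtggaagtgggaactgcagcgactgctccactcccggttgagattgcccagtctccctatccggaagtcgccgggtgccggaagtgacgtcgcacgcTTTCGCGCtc
Pola1: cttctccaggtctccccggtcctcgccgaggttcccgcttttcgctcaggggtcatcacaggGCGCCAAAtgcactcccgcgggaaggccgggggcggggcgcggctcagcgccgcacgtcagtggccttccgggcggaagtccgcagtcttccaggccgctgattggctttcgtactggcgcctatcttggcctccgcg
Mcm5: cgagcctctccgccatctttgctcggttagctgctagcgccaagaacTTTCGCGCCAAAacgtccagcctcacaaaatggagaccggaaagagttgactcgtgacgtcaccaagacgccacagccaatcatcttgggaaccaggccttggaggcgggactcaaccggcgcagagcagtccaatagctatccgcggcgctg
In Orc1 the match begins 27 bases before the start, and in Rfc3 10 bases before it. Mcm6 has 3 matches, of which 2 overlap on opposite strands, and Mcm5 has 2 that overlap in the same way.

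The libraries held between 18735853 and 22767455 counts. Erbb2 itself was at 125, 164 and 128 CPM (counts per 1000000 scaled counts) in control replicates 1, 2 and 3 and at 342, 349 and 285 CPM in the overexpressing ones. The groups did not overlap (log2 fold change 1.23, SE 0.09, edgeR adjusted p = 3.47e-05 when replicate numbers are blocked and 0.64 when they are not). Libraries of the same number deviated together, so the block is kept in the fits below. The first principal component, with 57.8% of the variance, set both libraries of replicate 3 apart from the other 4, and results are given below with and without them. The lists of gastric epithelial markers summed to between 12569 and 15274 CPM in a library. Markers of other cell types were low: 7 fibroblast genes summed to at most 1.70 CPM, with Col1a2, Dcn, Lum and Pdgfrb at 0 counts throughout, 7 immune genes to at most 2.53 CPM (Adgre1 at 0), and 5 endothelial genes to at most 1.66 CPM (Emcn at 0). The parietal cell genes Atp4b and Slc26a7, markers of the acid-secreting cells of the corpus, were at 0 counts in each library. The whole parietal list summed to between 159 and 259 CPM, mostly from the potassium channel gene Kcnq1 (152 to 224 CPM), with the proton pump gene Atp4a at 2.87 to 5.41 CPM. This list also held the intrinsic factor gene Gif, whose values are given below. Its sum is therefore not a measure of parietal cells alone. The chief cell list summed to between 60.4 and 110 CPM and the enteroendocrine list to between 0.500 and 3.96 CPM.

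No member passed the test between Erbb2-overexpressing and control organoids. Most members differed between the replicate numbers, with control replicate 3 the highest library for 44 of the 46 (19.5% of all genes). The overexpressing library was below its control for 45 of the 46 genes in the pair of replicate 3 (50.3% of all genes), for 28 in the pair of replicate 1 (50.9%) and for 14 in the pair of replicate 2 (49.5%).

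In the comparison of the groups, 0 of 46 genes were called higher and 0 lower (edgeR with the block, adjusted p over all genes between 0.085 and 0.996), where 3.09% of all genes tested were called, 2.37% higher and 0.723% lower. At an unadjusted p under 0.05 there were 6 members, or 13%, against 16.8% of all genes, and these 6 had negative fold changes, where 7.2% of all genes had such a p with a negative one and 9.64% with a positive one. Without the block edgeR called 0 members and 0 of all genes, with an adjusted p of 1.0 for each member, and the smallest unadjusted p of a member was 0.134; 0 members and 419 genes (3.33%) had an unadjusted p under 0.05. DESeq2 and limma voom, run with the block, also called 0 members. For 0 of the 46 genes were the overexpressing libraries all below or all above the controls, where 4.48% and 4.27% of all genes were. The fitted log2 fold changes ran from -0.68 to 0.08 with a median of -0.15, against a median of -0.01 over all genes. They were below 0 for 41 of 46 members (89.1%) and for 51.6% of all genes. The 95% intervals lay within a 2-fold change either way for 45 of the 46 genes and within 1.5-fold for 30, so changes of more than 2-fold were outside the interval except for Orc1.

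**Figure D1:**
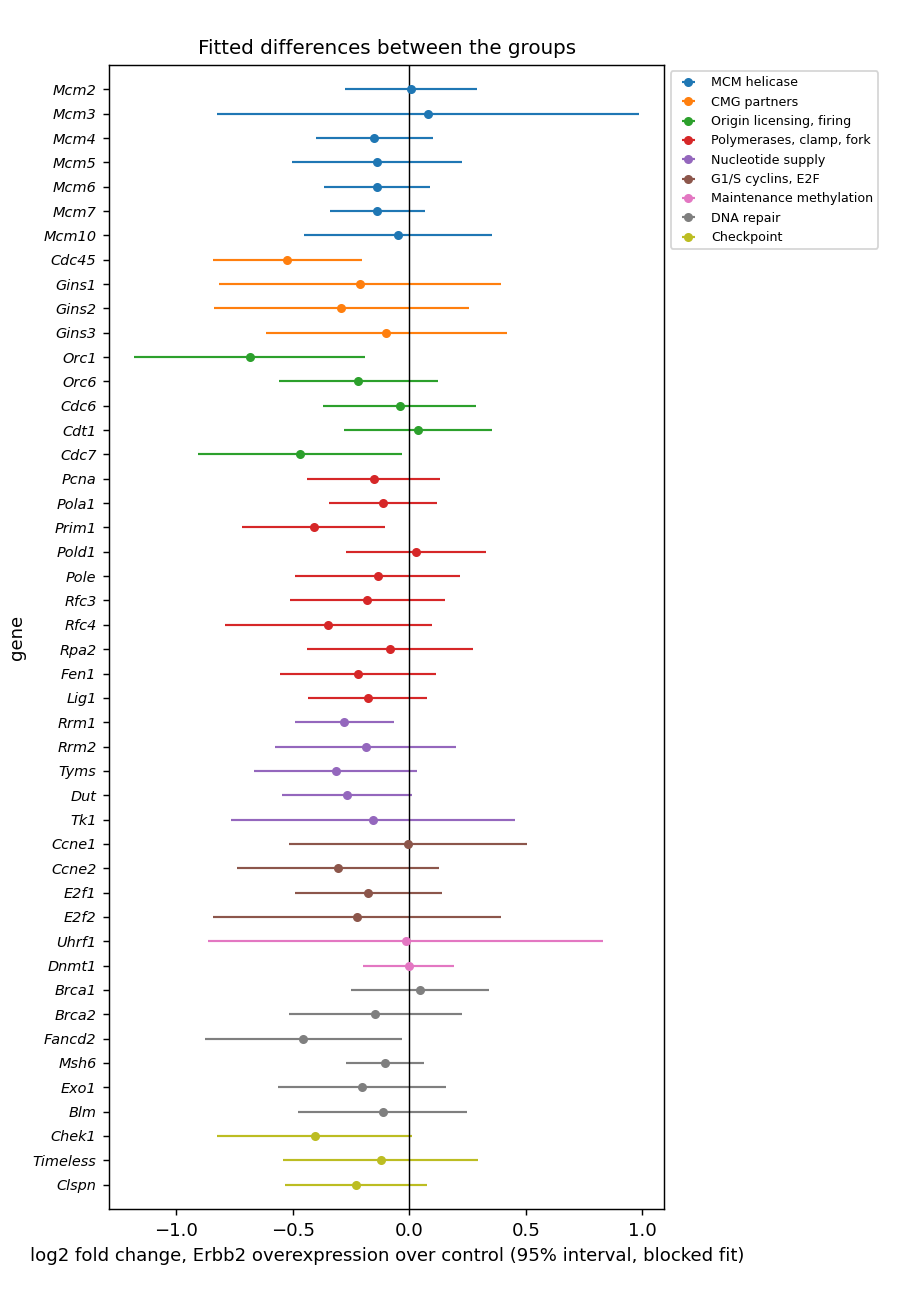
Fitted log2 fold change of each of the 46 genes, Erbb2 overexpression over control, with its 95% interval from the blocked edgeR fit (horizontal axis) and genes grouped by role (vertical axis, colours). The points run from -0.68 for Orc1 to 0.08 for Mcm3, and 6 intervals exclude 0 before adjustment.

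Fold changes below 0 were spread over the roles: 5 of 7 MCM genes, 4 of 4 helicase partners, 4 of 5 origin factors, 9 of 10 fork genes, 5 of 5 nucleotide genes, 4 of 4 G1/S regulators, 2 of 2 methylation genes, 5 of 6 repair genes and 3 of 3 checkpoint genes. The 7 MCM genes are Mcm2 to Mcm7, which form the ring that is the motor of the helicase, and Mcm10. Together they gave 482, 340 and 812 CPM in control replicates 1, 2 and 3 and 471, 408 and 588 CPM in the overexpressing ones. Replicate 3 was high in both groups, and control replicate 2 was low. Per kb of exon length Mcm4 had the highest mean level of the ring genes Mcm2 to Mcm7, at 28.1 CPM per kb over the 6 libraries, and Mcm2 the lowest at 9.56; both held that place in 6 of 6 libraries. Between them stood Mcm6 at 23.1, Mcm7 at 19.8, Mcm3 at 18.5 and Mcm5 at 17.9 CPM per kb, whose ranges over the libraries overlapped. Mcm10, which acts in starting the helicase and is not part of the ring, was at 1.79 CPM per kb.

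Mcm7 (ENSMUSG00000029730) was at 87.4, 60.6 and 130 CPM in control replicates 1, 2 and 3 and at 80.7, 63.8 and 102 CPM in the overexpressing ones. Each overexpressing library lay between control replicates 2 and 3, so the groups overlapped fully (log2 fold change -0.14, SE 0.09, adjusted p = 0.51 in edgeR). Mcm4 (ENSMUSG00000022673) was at 97.0, 66.9 and 161 CPM in the controls and at 89.3, 76.2 and 115 CPM with Erbb2. Its overexpressing libraries were again inside the range of the controls (log2 fold change -0.15, SE 0.11). Mcm3 had the widest interval of the group, from -0.82 to 0.99 on the log2 scale. It was at 55.8, 33.1 and 124 CPM in the controls and 69.0, 52.6 and 80.7 CPM with Erbb2, higher than the partner library in pairs 1 and 2 and lower in pair 3. Mcm2, Mcm5, Mcm6 and Mcm10 had fitted log2 fold changes of 0.01, -0.14, -0.14 and -0.05.

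Of the partners that turn the ring into an active helicase, Cdc45 (ENSMUSG00000000028) had the smallest p of the 46 genes. It was at 14.3, 11.1 and 28.8 CPM in control replicates 1, 2 and 3 and at 12, 7.93 and 17.0 CPM in the overexpressing ones. Each overexpressing library was below its partner, while the groups overlapped, with Erbb2 replicate 3 above control replicates 1 and 2. The log2 fold change was -0.52 (SE 0.15, 95% interval -0.84 to -0.20), with an adjusted p of 0.085 in edgeR. Cdc45 was also the highest of the 4 partners per kb, at 4.33 CPM per kb, where the GINS genes Gins1, Gins2 and Gins3 were at 2.61, 2.39 and 1.41. The GINS genes were low, with Gins1 between 1.63 and 6.67 CPM, and their log2 fold changes of -0.21, -0.29 and -0.10 had standard errors of 0.28, 0.24 and 0.24. Gins2 shares 67.3% of its exon length with Gse1 on the opposite strand, so its reads may come in part from that gene.

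Among the origin factors, Orc1 (ENSMUSG00000028587), the largest subunit of the origin recognition complex, had the largest fitted difference of the list. It was at 5.65, 3.49 and 6.93 CPM in the controls and at 3.53, 1.59 and 4.87 CPM with Erbb2. It was lower than the partner in each of the 3 pairs, with within-pair log2 differences of -0.66, -1.09 and -0.50, and the groups overlapped. The log2 fold change was -0.68 (SE 0.23, 95% interval -1.18 to -0.19, adjusted p = 0.144 in edgeR). Orc1 was also the lowest of the 5 origin factors per kb, at 1.25 CPM per kb.

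Cdt1 (ENSMUSG00000006585), the loader of the MCM ring, was the highest of the 5 at 5.90 CPM per kb. It was at 14, 10.1 and 31.8 CPM in the controls and 17.5, 11.6 and 26.1 CPM with Erbb2, and its fitted log2 fold change was 0.04 (SE 0.15). Cdc6, its fellow loader, stood at -0.04 and Orc6 at -0.22. Cdc7, the kinase that fires licensed origins, stood at -0.47 (SE 0.20, unadjusted p = 0.0372, adjusted p = 0.26 in edgeR), with pair differences of -0.14, -0.22 and -0.85.

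At the fork, Prim1 (ENSMUSG00000025395), the catalytic subunit of primase, had the smallest p of 10 genes. It was at 21.8, 16.1 and 31.5 CPM in the controls and at 15.8, 16.0 and 19.8 CPM with Erbb2. The overexpressing libraries lay close together, 2 of them below each control and the third inside the range of the controls, and the fitted log2 value was -0.41 (SE 0.14; edgeR adjusted p = 0.156). Pcna (ENSMUSG00000027342), the sliding clamp, had the highest mean level per kb of all 46 genes, at 29.0 CPM per kb, although its range over the libraries (22.5 to 39.6) overlapped that of Msh6 (23.4 to 35.6) and Mcm4 (18.6 to 44.8). Pcna was at 72.2, 54.1 and 95.1 CPM in the controls and at 67.2, 62.8 and 65.6 CPM with Erbb2, where the spread was narrower (log2 fold change -0.15, SE 0.13).

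The replicative polymerases Pola1, Pold1 and Pole had log2 fold changes of -0.11, 0.03 and -0.14. The clamp loader subunits Rfc3 and Rfc4 stood at -0.18 and -0.35, and Rpa2, of the single-strand binding complex, at -0.08. Fen1 and Lig1, the flap nuclease and the ligase that finish lagging-strand fragments, stood at -0.22 and -0.18. Lig1 was the second of the group per kb, at 14.2 CPM per kb.

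In nucleotide supply, Rrm1 (ENSMUSG00000030978), the large subunit of ribonucleotide reductase, was at 90.3, 76.8 and 154 CPM in the controls and at 79.8, 72.6 and 105 CPM with Erbb2. Each overexpressing library was below its partner by a log2 difference of 0.18, 0.08 and 0.56 in size, and the fit gave -0.28 (SE 0.10, adjusted p = 0.169 in edgeR). Rrm2 (ENSMUSG00000020649), the small subunit, was at 22.6, 15.9 and 58.0 CPM in the controls and 22.2, 19.8 and 36.5 CPM with Erbb2, and its fitted value was -0.19 (SE 0.17). The thymidylate genes Tyms, Dut and Tk1, which make thymidylate, clear dUTP and salvage thymidine, had log2 fold changes of -0.32, -0.27 and -0.16.

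Of the regulators of the G1/S step, E2f1, Ccne1 and Ccne2 were at 3.99, 3.72 and 2.50 CPM per kb. E2f2 was the lowest of the 46 at 0.535 CPM per kb. E2f1 (ENSMUSG00000027490), an activator of replication genes, was at 11.8, 8.68 and 19.7 CPM in the controls and at 11.3, 7.36 and 16.8 CPM with Erbb2. Each overexpressing library was a little below its partner, by 0.06, 0.23 and 0.23 in size on the log2 scale, and the fitted log2 fold change was -0.18 (SE 0.14). The cyclin gene Ccne2 (ENSMUSG00000028212) was at 9.41, 7.15 and 12.4 CPM in the controls and at 8.64, 7.87 and 7.04 CPM with Erbb2 (log2 fold change -0.31, SE 0.20, adjusted p = 0.482 in edgeR). Its relative Ccne1 stood at -0.01, with pair differences of 0.71, 0.13 and -0.58 that went both ways.

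For maintenance methylation, Dnmt1 (ENSMUSG00000004099), the methyltransferase that copies methylation to new DNA, was at 124, 105 and 185 CPM in the controls and at 126, 120 and 159 CPM with Erbb2. Its fitted log2 fold change was 0.00 in size (SE 0.09, 95% interval -0.20 to 0.19), among the narrowest of the list. Uhrf1 (ENSMUSG00000001228), which recruits it to hemimethylated sites, was at 42.7, 25.1 and 99.9 CPM in the controls and at 52.7, 35.7 and 60.4 CPM with Erbb2. As with Mcm3 the pairs went both ways, and the interval was wide, from -0.86 to 0.83.

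Among repair genes, Fancd2 (ENSMUSG00000034023), the central factor of the Fanconi crosslink pathway, was at 9.18, 5.86 and 16.8 CPM in the controls and at 5.36, 6.62 and 11.2 CPM with Erbb2. It was below its partner in pairs 1 and 3 (log2 fold change -0.45, SE 0.19, unadjusted p = 0.0366, adjusted p = 0.258 in edgeR). Msh6 (ENSMUSG00000005370), of mismatch recognition, was the highest repair gene per kb, at 28.1 CPM per kb against 2.48 for the next, Brca1. It was at 114, 110 and 155 CPM in the controls and 102, 105 and 147 CPM with Erbb2 (log2 fold change -0.10, SE 0.08). Brca1 and Brca2, of homologous recombination, stood at 0.04 and -0.15, the nuclease gene Exo1 at -0.20 and the helicase gene Blm at -0.11.

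In the checkpoint group, Chek1 (ENSMUSG00000032113), the kinase that halts the cycle when forks stall, was at 13.7, 7.55 and 17.6 CPM in the controls and at 9.86, 9.17 and 10.1 CPM with Erbb2 (log2 fold change -0.41, SE 0.19, adjusted p = 0.312 in edgeR). The 3 overexpressing libraries were close together and inside the range of the controls. Clspn (ENSMUSG00000042489), which brings CHK1 to its activating kinase, was at 33.3, 19.7 and 51.0 CPM in the controls and 28.1, 23.3 and 34.3 CPM with Erbb2 (log2 fold change -0.23, SE 0.14). Timeless, of the fork protection complex, stood at -0.12.

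**Figure D2:**
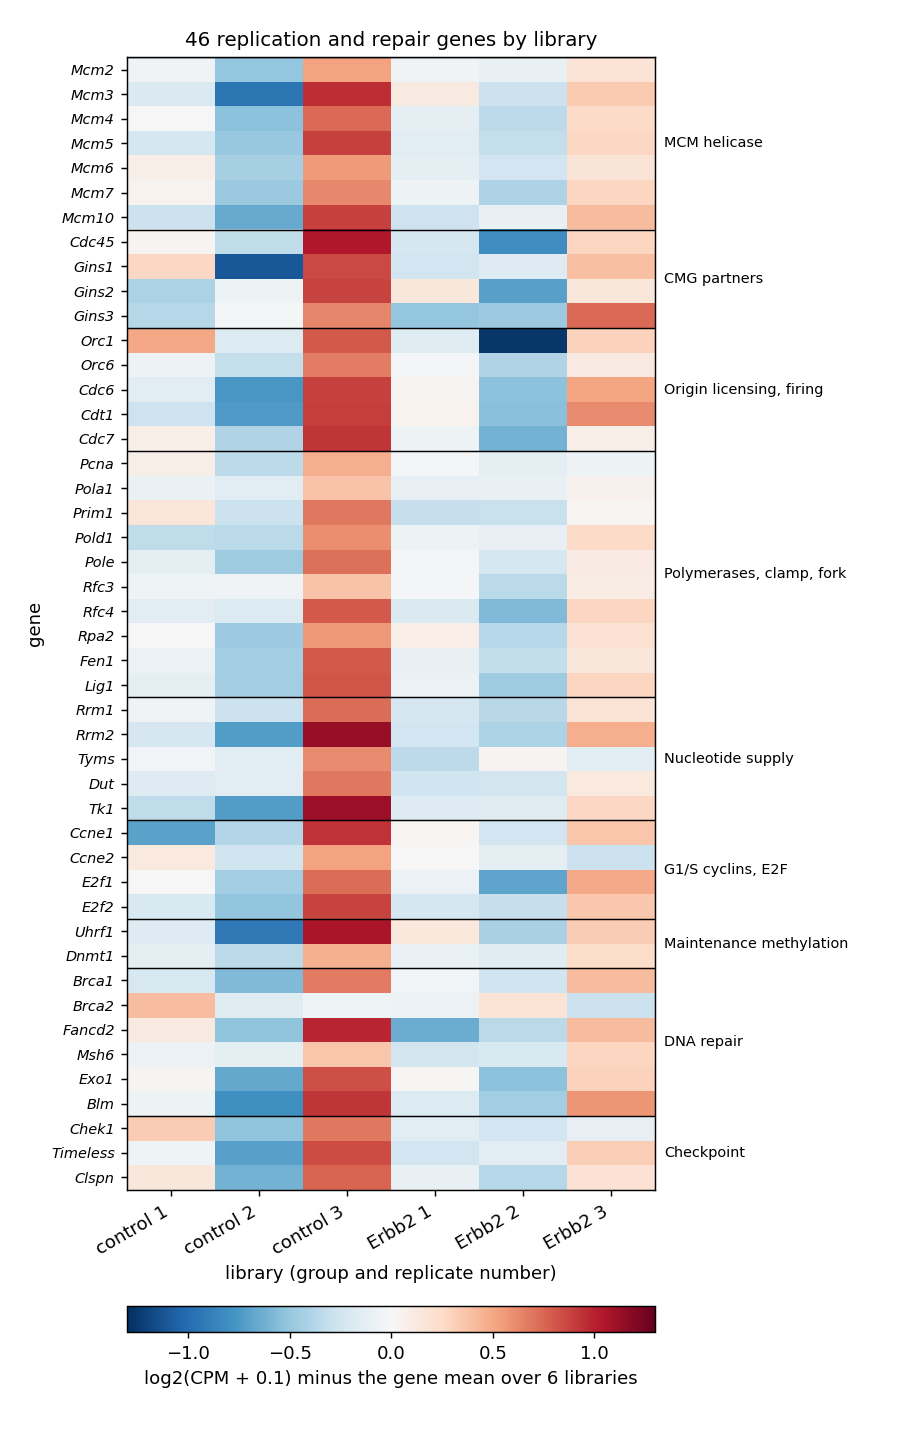
Each cell is log2(CPM + 0.1) of a gene (rows, grouped by role) in a library (columns) minus the mean of that gene over the 6 libraries. The column of control replicate 3 is red for 45 of 46 genes and that of Erbb2 replicate 3 for 41, while that of control replicate 2 is below the mean for each gene.

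More of these genes differed between the replicate numbers than between the groups. The summed level of the 46 genes was 1436, 1111 and 2406 CPM in control replicates 1, 2 and 3 and 1391, 1234 and 1753 CPM in the overexpressing ones. Of the 46 genes 34 (73.9%) differed between the numbers (edgeR, adjusted p over all genes for the replicate term), where 29.0% of all genes tested did. Both libraries of replicate 3 lay above the other 4 for 39 of 46 members (84.8%), and for 18.8% of all genes. Control replicate 3 was the highest of the 6 libraries for 44 members (95.7%), against 19.5% of all genes. The exceptions were Gins3, highest in Erbb2 replicate 3, and Brca2, highest in control replicate 1.

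Contrasted number by number, replicate 3 was higher than replicate 2 for 38 members and lower for 0, where 15.1% and 15.4% of all genes were called in those directions. It was higher than replicate 1 for 22 and lower for 0, against 8.0% and 9.31% of all genes. Between replicates 2 and 1, 0 members were called in either direction, with 2.28% and 2.99% of all genes called. The median log2 difference of the members was 0.61 for replicate 3 over 1, 0.94 for 3 over 2 and -0.28 for 2 over 1, where the median over all genes was 0.00 in each.

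The genes named next were picked as the largest folds after their values were seen. Cdt1 was 2.66-fold higher in replicate 3 than in replicate 2 (edgeR, adjusted p = 0.000108), Uhrf1 2.63-fold (adjusted p = 0.066, not called), Rrm2 2.61-fold (adjusted p = 0.00122) and Blm 2.60-fold (adjusted p = 0.000341). In the contrast with replicate 1 the called folds were largest for Gins3 at 2.22 and Rrm2 at 2.08. By role, 6 of 7 MCM genes, 2 of 4 helicase partners, 5 of 5 origin factors, 7 of 10 fork genes and 4 of 5 nucleotide genes passed the replicate term. So did 2 of 4 G1/S regulators, 1 of 2 methylation genes, 5 of 6 repair genes and 2 of 3 checkpoint genes. The 12 that did not pass were Mcm3, Gins1, Gins2, Pcna, Pola1, Rfc3, Tyms, Ccne2, E2f2, Uhrf1, Brca2 and Chek1.

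**Figure D3:**
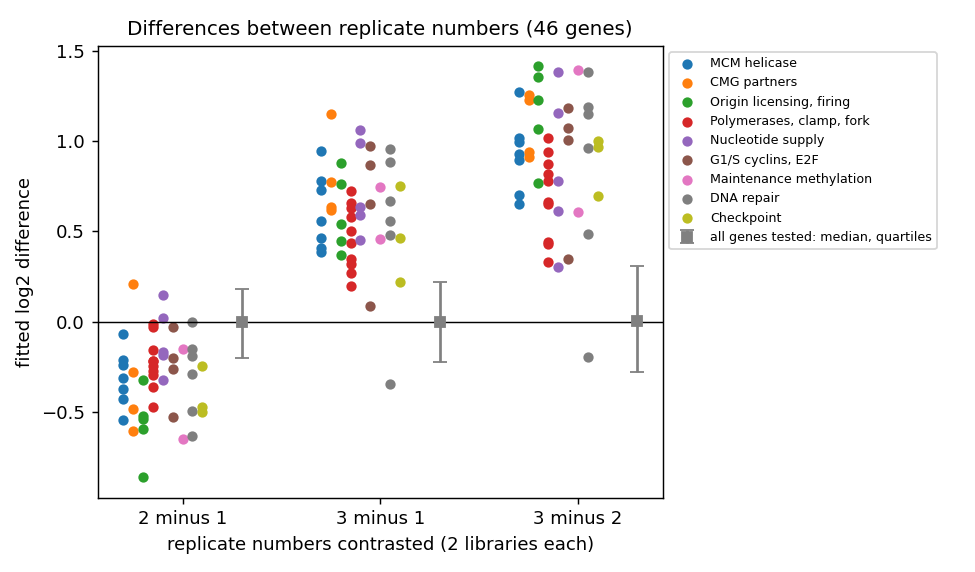
Fitted log2 difference between replicate numbers for the 46 genes (points, coloured by role), with the median and quartiles of all genes tested in grey beside each set. The points of replicate 3 over 2 centre on 0.94 and those of 3 over 1 on 0.61, and Brca2 is the single gene below 0 in both.

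The difference between the numbers was also read by promoter window. The 18 genes with a match had a median log2 difference of 0.56 for replicate 3 over 1 and the 21 without one of 0.63, and 12 of 18 and 18 of 21 passed the replicate term. This comparison was not tested. The numbers in the labels are not tied to a mouse, passage or date, so what set replicate 3 apart was not tested. Mitochondrial transcripts held 8.05% and 6.33% of counts in control and Erbb2 replicate 3 and between 8.01% and 11.1% in the other 4 libraries. The gastric intrinsic factor gene Gif was at 38.2 and 32.1 CPM in replicate 3 and at most 3.62 CPM elsewhere. The part of either in the result was not tested.

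The difference between the groups was also read pair by pair. Within the pair of replicate 3 the overexpressing library was lower for 45 of 46 members, where 50.3% of all genes were lower, with a median log2 difference of -0.53. In the pair of replicate 1 it was lower for 28 members (50.9% of all genes; median -0.04), and in the pair of replicate 2 for 14 (49.5% of all genes; median 0.18). The median over all genes was 0.00 to -0.01 in these pairs. Each pair has 1 library per group, so a difference between the pairs could not be tested.

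Of the 46 genes 9 (19.6%) were lower in the overexpressing library of each pair, close to the 19.2% of all genes, and 0 were higher in each pair, against 19.6%. The 9 were Cdc45, Orc1, Cdc7, Prim1, Rfc4, Rrm1, Dut, E2f1 and Msh6.

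Without replicate 3 the list as a whole no longer lay below 0. The median log2 fold change moved from -0.15 to 0.03, against 0.00 over all genes in that fit. Below 0 were 19 of 46 members (49.9% of all genes). In that fit 2 members rose and 0 fell, against 6.15% of all genes called higher and 2.56% lower. They were Mcm3, by 1.40-fold (edgeR, adjusted p = 0.000497), and Uhrf1, by 1.32-fold (adjusted p = 0.0122). At an unadjusted p under 0.05 there were 4 members (19.9% of all genes), the others being Ccne1 with a log2 fold change of 0.45 and Orc1 with -0.82, the 1 member with a negative value (8.11% of all genes). Without replicate 3, replicates 1 and 2 differed for 11 members, where 16.4% of all genes differed.

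Leaving out either of the other numbers kept the list below 0. Without replicate 1, 0 members were called, where 1.37% of all genes were called higher and 0.317% lower. The median was then -0.23, with 44 members below 0 (51.0% of all genes) and 5 at an unadjusted p under 0.05 (12.9% of all genes), each of them lower (5.08% of all genes). Without replicate 2, 0 members were called, where 0.958% of all genes were called higher and 0.188% lower. The median was then -0.27, with 44 members below 0 (47.7% of all genes) and 14 at an unadjusted p under 0.05 (10.2% of all genes), each of them lower (3.72% of all genes). The remaining numbers differed for 36 members without replicate 1 (29.4% of all genes) and for 25 without replicate 2 (14.5% of all genes).

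**Figure D4:**
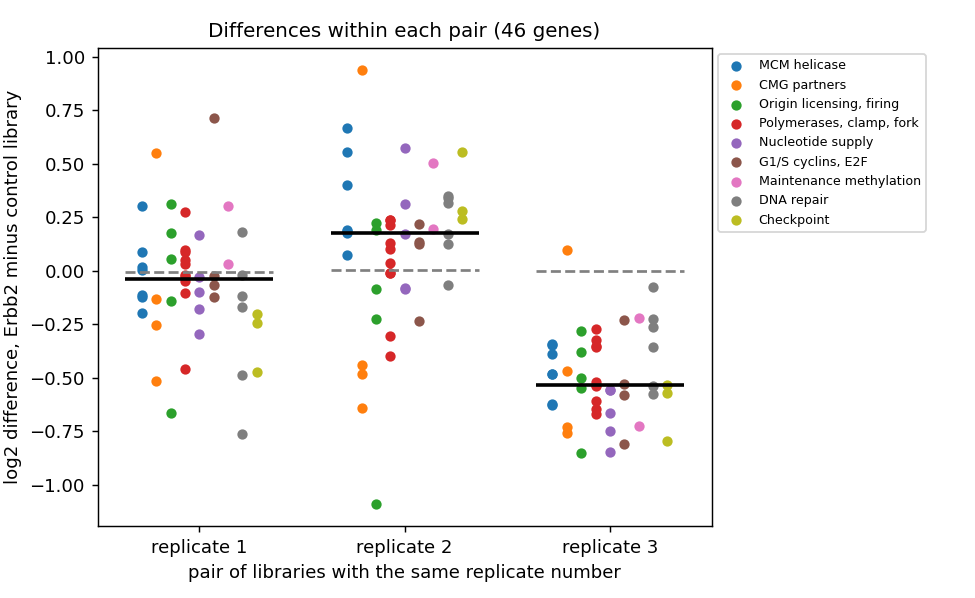
Log2 difference of CPM + 0.1 between the Erbb2 and the control library of each replicate number (horizontal axis), 1 point per gene, coloured by role. Black bars mark the median of the 46 genes (-0.04, 0.18 and -0.53) and dashed grey bars that of all genes tested; in replicate 3 the point above 0 is Gins3.

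Other genes of the same pathways were read from the same fit. Of 36 further replication fork and origin genes, 0 were called higher and 0 lower, where 2.37% and 0.723% of all genes were. Pold4, the small accessory subunit of polymerase delta, had the smallest p and a positive log2 fold change of 0.41 (adjusted p = 0.0672 in edgeR). It was at 19.0, 21.1 and 31.0 CPM in the controls and at 24.4, 26.2 and 44.5 CPM with Erbb2. The list leaned the other way, with 24 of the 36 below 0 (51.6% of all genes) and a median of -0.07. At an unadjusted p under 0.05 in edgeR were 4 of the 36 (16.8% of all genes). Besides Pold4 these were Tipin, Rfc5 and Wdhd1, with log2 fold changes of -0.36, -0.33 and -0.37. Of 40 further repair genes, 0 were called (3.09% of all genes). Of these 28 had a log2 fold change below 0 (51.6% of all genes), with a median of -0.07. Of 11 other E2F, DP and pocket protein genes, 0 were called (3.09% of all genes). Rb1, the retinoblastoma gene, had the smallest p (log2 fold change 0.20, unadjusted p = 0.0713, adjusted p = 0.349 in edgeR). Of these 3 lists 22, 15 and 5 genes differed between the replicate numbers, where 29.0% of all genes did.

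Of 21 mitosis genes, 1 was called lower and 0 higher, where 0.723% and 2.37% of all genes were. A negative log2 fold change with an unadjusted p under 0.05 in edgeR was seen for 12 of the 21 (7.2% of all genes). Ccnb2, the mitotic cyclin B2, fell from 22.9, 18.4 and 54.3 CPM in the controls to 16.0, 13.3 and 36.3 CPM with Erbb2 (log2 fold change -0.53, SE 0.11, adjusted p = 0.0202 in edgeR with the block and 1.0 without it). The adjusted p of Ccnb2 stayed under the threshold without replicate 3 but not without replicate 1 or 2. All 21 mitosis genes had negative log2 fold changes (51.6% of all genes), with a median of -0.38. Their median log2 difference was -0.23, 0.01 and -0.71 in the pairs of replicates 1, 2 and 3. Of the 21, 19 differed between the replicate numbers (29.0% of all genes). Of 7 CDK inhibitors, 0 were called (3.09% of all genes), and 4 had an unadjusted p under 0.05 in edgeR (16.8% of all genes). Cdkn2a, which encodes INK4A and ARF, had the smallest p (log2 fold change 0.41, unadjusted p = 0.0101, adjusted p = 0.139 in edgeR). The others with such a p were Cdkn2b, Cdkn1b and Cdkn1a, with log2 fold changes of 0.35, -0.23 and 0.23. Cdkn2a was at 9.92, 7.27 and 23.7 CPM in the controls and at 13.3, 10.02 and 30.5 CPM with Erbb2, so that it too was highest in the libraries of replicate 3.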

How the data were processed

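RNA was sequenced from 6 libraries of mouse gastric corpus organoids, 3 per group. The authors deposited a table of read counts per Ensembl gene for each library. The submitters' processing notes name STAR, featureCounts and GRCm39; the sources used here give neither their versions and roles nor whether counting used strand. Counts were tested as deposited with edgeR 4.0.16 (R 4.3.3): TMM scaling, filterByExpr with a minimum count of 10, robust quasi-likelihood F tests (two-sided), Benjamini-Hochberg adjustment over all 12593 genes tested and a threshold of 0.05. The model held group and replicate number.

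The numbers come from the sample titles. Deviations of same-numbered libraries from their group means correlated at 0.33, 0.66 and 0.71 across genes, and those of other pairs at 0.13 or less, so the numbers were taken to pair the libraries. CPM are counts per 1000000 of TMM-scaled library size. Pair differences are on log2(CPM + 0.1), which understates changes of low genes. Intervals are the log2 fold change plus or minus the t quantile times the SE. Levels per kb divide CPM by the union of exons (GENCODE M21, GRCm38), which was used for names, lengths, GC content and overlaps only, since the files use another build. Symbols were found for 25424 of 25528 genes.

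The members and lists were chosen with earlier results of these data known. Values in every library are given for Erbb2 and, in each role, for the member with the smallest p and the one with the highest level per kb; further values were added where pairs disagreed. From the other lists the genes called, or else the one with the smallest p, are named, except where an item is not reported here. Promoters were shown for the 6 genes of smallest p with a match before the start, since bases after it belong to the transcript. Of the 46 genes 11 share exon sequence with a gene on the opposite strand (Gins2 67.3%, Ccne2 17.4%, Rfc4 12.7%, the others at most 8.7%), and reads of such genes may be mixed. Alternatives were DESeq2 1.42.0, limma 3.58.1 voom, other scalings and filters, GC and length offsets, no block, and each replicate left out.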

Additional observations from a re-analysis of the deposited data

How the results depend on the processing

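The call of 0 members between the groups held in each alternative except without replicate 3 (leaving out each replicate gave 0 to 2 members). Over all genes 389 were called; without the replicate block 0 were, and leaving out each replicate gave 146 to 1089. Leaving out the block changed the call of no member. Of the other pathway genes 1 was called, 3 with DESeq2, 3 with limma voom, 3 with GC and length offsets, 0 without the replicate block, and 1 to 3 with each replicate left out. Members that differed between the numbers were 34, and 11 to 36 with each replicate left out (36, 25 and 11 without replicates 1, 2 and 3). Leaving out a number also leaves fewer libraries; the cause was not tested otherwise.

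The fitted direction changed 54 times in 29 genes, all with a log2 fold change of at most 0.29 in size and none called in the reported fit. With limma voom the other sign was taken by Mcm2 (-0.012), Cdt1 (-0.013) and Pold1 (-0.010). Without the replicate block the other sign was taken by Mcm2 (-0.036), Mcm3 (-0.077), Cdt1 (-0.019) and Pold1 (-0.011). With the replicate block and GC and length offsets the other sign was taken by Mcm2 (-0.060), Cdt1 (-0.028) and Pold1 (-0.076). With DESeq2 the other sign was taken by Mcm10 (0.020), Cdc6 (0.00033), Ccne1 (0.080), Uhrf1 (0.036) and Dnmt1 (0.0055). With the earlier quasi-likelihood form the other sign was taken by Mcm10 (0.0021), Ccne1 (0.060) and Uhrf1 (0.0047). With RLE scaling the other sign was taken by Ccne1 (0.0022) and Dnmt1 (0.0038). With genes kept from 1 CPM in 3 libraries on, the other sign was taken by Ccne1 (0.0054) and Dnmt1 (0.0025). Leaving out each replicate in turn, the log2 fold change ranged across 0 for Mcm2 (-0.16 to 0.20), Mcm3 (-0.16 to 0.48), Mcm4 (-0.29 to 0.034), Mcm5 (-0.26 to 0.14), Mcm10 (-0.25 to 0.27), Pcna (-0.31 to 0.056), Rrm2 (-0.35 to 0.14), Tk1 (-0.38 to 0.36), Gins1 (-0.49 to 0.029), Gins2 (-0.70 to 0.037), Gins3 (-0.28 to 0.026), Cdc6 (-0.13 to 0.20), Cdt1 (-0.080 to 0.27) and Orc6 (-0.35 to 0.00081). It did so too for Pola1 (-0.17 to 0.012), Pold1 (-0.076 to 0.26), Pole (-0.26 to 0.16), Rpa2 (-0.16 to 0.11), Fen1 (-0.33 to 0.055), Lig1 (-0.29 to 0.029), Ccne1 (-0.29 to 0.45), E2f2 (-0.32 to 0.088), Uhrf1 (-0.21 to 0.40), Dnmt1 (-0.083 to 0.12), Brca1 (-0.041 to 0.25), Brca2 (-0.35 to 0.052), Exo1 (-0.29 to 0.045), Blm (-0.24 to 0.082) and Timeless (-0.37 to 0.15). The members with the lowest count in a library were Orc1 (28), Gins1 (29) and E2f2 (30).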
